A study of Mus musculus with 6 samples.

Results

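The genes described here are those of the eukaryotic translation initiation factors, eIF1 to eIF6, and of the 4E-BPs, the small proteins that hold the cap-binding factor eIF4E inactive. They were taken as every symbol of the deposited expression table that begins with Eif1, Eif2, Eif3, Eif4, Eif5 or Eif6, leaving out the eIF2 kinase genes that begin with Eif2ak. This gave 51 of 25124 symbols, of which 48 reached the minimum for testing, a TPM of 1 in at least 3 of 6 libraries (TPM is a read number scaled by transcript length and library, summed over transcripts to a fixed total). Of these libraries 3 came from RAW264.7 cells labelled as E4BP4 knockout and 3 from RAW264.7 cells labelled as control, all untreated and kept in the same high-glucose medium. RAW264.7 cells are an established mouse line with macrophage features, derived from a tumour that Abelson virus induced. E4BP4 is the bZIP repressor encoded by Nfil3. The sources used here do not give how the knockout was made or whether its cells were 1 clone, and nothing says that replicates were separate cultures, so p-values measure only the spread between these libraries.

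Initiation brings a ribosome to the start codon of an mRNA. eIF2 carries the initiator tRNA to the small ribosomal subunit and is recharged with GTP by eIF2B, while eIF3, eIF1, eIF1A and eIF5 assemble there. eIF4E binds the mRNA cap, eIF4G bridges it to eIF3 and eIF4A unwinds the leader, and eIF5B joins the large subunit. Phosphorylation of eIF2 slows this process and favours translation of Atf4, and 4E-BPs, released by the kinase mTORC1 when nutrients are plentiful, block the meeting of eIF4E with eIF4G. 4E-BP1 is known as a target of ATF4 in stressed cells, and macrophages use both controls to set the output of inflammatory proteins.

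The start regions of 5 members are shown because 4 of them rose most among eIF3 genes and 1, Eif1b, fell most of all members. Each is 75 bases before to 25 bases from the start of the RefSeq transcript (GRCm38.p6, 5′ to 3′ on the gene's strand), so its last 25 bases lie in the first exon. Capitals mark a run of at least 8 successive C or T that begins within 20 bases before or after the start. Many mRNAs of the translation machinery start with a stretch of this kind, but the search did not require the run to begin at the start itself.
Eif3m (chr2:105017003-105017102, minus strand): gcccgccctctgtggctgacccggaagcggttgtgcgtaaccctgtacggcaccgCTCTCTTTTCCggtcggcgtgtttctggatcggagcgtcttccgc
Eif3c (chr7:126566342-126566441, minus strand): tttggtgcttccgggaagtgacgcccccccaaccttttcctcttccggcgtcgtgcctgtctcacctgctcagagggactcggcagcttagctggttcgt
Eif3f (chr7:108934340-108934439, plus strand): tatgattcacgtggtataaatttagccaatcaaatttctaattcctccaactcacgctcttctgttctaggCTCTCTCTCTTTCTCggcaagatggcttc
Eif3k (chr7:28981864-28981963, minus strand): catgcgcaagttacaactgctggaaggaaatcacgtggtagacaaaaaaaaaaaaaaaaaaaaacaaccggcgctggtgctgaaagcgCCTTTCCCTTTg
Eif1b (chr9:120492531-120492630, plus strand): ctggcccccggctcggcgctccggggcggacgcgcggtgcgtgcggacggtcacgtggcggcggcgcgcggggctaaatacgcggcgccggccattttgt
The run is 15 bases long in Eif3f, 11 in Eif3k and 11 in Eif3m, and was not found in Eif3c or Eif1b. It begins 4 bases before the annotated start in Eif3f, 20 bases before it in Eif3m, and at base 14 of the transcript in Eif3k. None of these runs begins at the annotated start, and that of Eif3m ends before it. RefSeq promoter windows (250 bases before to 50 after the start) were available for 39 members. Of these members 10 held such a run in any of their windows, or 25.6%, against 20.01% of 8777 tested genes with a window.

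Sites known from this biology were searched in those windows on both strands. The D-box that E4BP4 binds, written TTATGTAA or TTACGTAA, was found in 0 of 39 members, and in 0.763% of the tested genes and 1.23% of all 27025 genes with a window. The composite ATF4 site, written TGATGNAAN, was found in 1 member, Eif2s3x, and in 2.73% of tested genes. Eif4ebp1 is not among the 39 members with a window, so it was searched for neither site. Cores of housekeeping promoters were more frequent. ACCGGAAG, bound by ETS factors, occurred in 7 members (Eif1ad, Eif3d, Eif3g, Eif3l, Eif4e2, Eif4ebp2 and Eif5a), or 17.9%, against 5.91% of tested genes. The core bound by NRF1 occurred in 7 members, or 17.9%, against 12.8%. A gene was counted if any of its windows held the site, and some genes, such as Eif5a and Eif4e2, have several windows. Shares therefore depend on the number of windows per gene, which was not matched between members and tested genes. These counts say only which letters lie in the windows.

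The libraries held 15615639 to 19867732 recovered reads, and those behind a tested member averaged from 102.0 per library for Eif4ebp3 to 32861 for Eif4g2. Nfil3, the targeted gene, measured 30.1 ± 0.803 TPM in the controls and 102.8 ± 2.65 TPM under the knockout label (SD, n = 3 each). The transcript was thus higher, not lower, under that label. The libraries hold no measure of E4BP4 protein, so whether the protein was lost was not tested. Directions below are by label only. Macrophage markers were present at high levels, such as Csf1r (248.4 TPM in controls), Cd68 (568.0) and Itgam (183.5), with Adgre1 at 2.73 and Mrc1 at 0.321. Of 7 tested markers 2 rose (Cd14 and Lyz2) and 4 fell (Adgre1, Cd68, Csf1r and Itgam), where 26.7% of all tested genes rose and 23.4% fell. The summed level of all 8 markers was 2751 to 2986 TPM in the controls and 3931 to 4072 TPM under the knockout label. That higher sum follows mainly Lyz2, which went from a mean of 1069 to 2218 TPM. All 26 markers of T, B, fibroblast, epithelial, endothelial, neutrophil and erythroid cells were under 1 TPM in every library, the erythroid ones at 0.

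More initiation factor genes rose than fell under the knockout label, by small amounts. At a Benjamini-Hochberg adjusted p under 0.05 in limma, over all 11257 genes tested, 20 of the 48 tested members rose (41.7%), 4 fell (8.33%) and the other 24 did not pass. The background was high, since 50.1% of all tested genes passed, 26.7% upward and 23.4% downward. A log2 fold change here is the difference in log2(TPM + 1), knockout label minus control. Of the 24 called members, 5 rose by 0.4 or more and the largest fall was 0.38, while 8.42% of all tested genes passed upward and 8.23% downward by 0.4 or more. The members' median was 0.09, against 0.02 for all tested genes, and the called members had a median absolute log2 fold change of 0.21, against 0.31 for all called genes. In bulk RNA, fewer cells of a type and less RNA per cell cannot be told apart. Groups did not overlap in TPM for 30 members, or for 58.5% of all tested genes. The summed TPM of 50 members, leaving out Eif3j2, was 6638 to 6824 in the controls and 7299 to 7327 under the knockout label in deposited scaling, a ratio of means of 1.08.

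**Figure D1:**
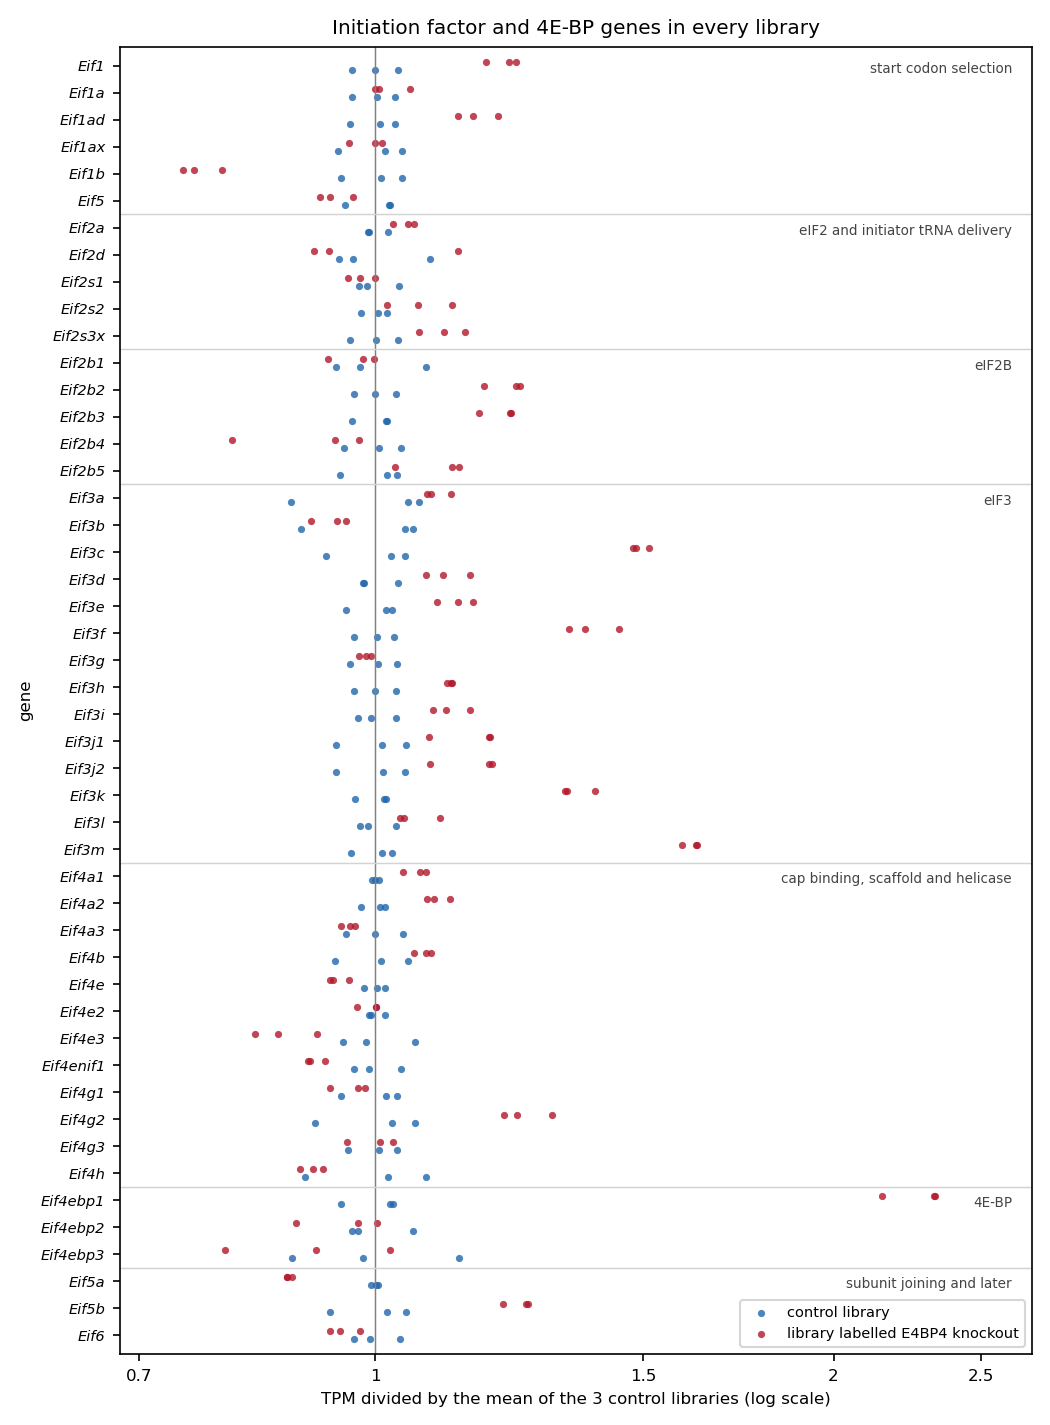
TPM of the 48 tested members in each library, divided by the mean of the 3 control libraries (log axis), ordered by role, with controls in blue and libraries labelled knockout in red. Eif4ebp1 stands furthest to the right, at a ratio of means of 2.27, followed by Eif3m at 1.61 and Eif3c at 1.49, and Eif1b furthest to the left at 0.767.

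Of the 4E-BP genes, Eif4ebp1 rose and the others did not pass. Eif4ebp1, which encodes 4E-BP1, measured 101.8, 94.5 and 102.2 TPM in the controls and 231.9, 231.6 and 214.1 TPM under the knockout label. The lowest value under the knockout label was far above the highest control, and the log2 fold change was 1.17 (SE 0.0464, limma adjusted p = 9.20e-08), the largest among members. It lies on chromosome 8 from 27260327 to 27275656 (mm10), in a chromosome whose tested genes had a median log2 fold change of −0.01. The 6 tested genes that start within 1 Mb had a median of 0.17, and 3 of them rose.

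Eif4ebp2, which encodes 4E-BP2, measured 30.6, 33.3 and 30.3 TPM in the controls and 30.6, 27.9 and 31.5 TPM under the knockout label. Its groups overlapped (log2 fold change −0.06, SE 0.0570, limma adjusted p = 0.372). Eif4ebp3, the least abundant, measured 5.32, 6.85 and 5.93 TPM against 4.81, 6.17 and 5.52 TPM. These groups also overlapped (log2 fold change −0.11, SE 0.101, limma adjusted p = 0.374). Of the 50-base windows of the Eif4ebp3 transcript, 65.5% also occur in a transcript of another GENCODE M21 gene, so its reads may be shared.

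Eif4e, which encodes the protein that 4E-BPs bind, measured 39.7, 40.2 and 38.9 TPM in the controls and 37.0, 37.2 and 38.1 TPM under the knockout label. The groups did not overlap, but the difference did not pass (log2 fold change −0.08, SE 0.0378, limma adjusted p = 0.105). It passed downward in limma-voom on recovered reads (−0.10, adjusted p = 0.0381) and on the deposited log2 values (−0.09, adjusted p = 0.0477). The summed TPM of the 3 4E-BP genes per TPM of Eif4e was 3.47, 3.35 and 3.56 in the controls and 7.22, 7.14 and 6.60 under the knockout label, a ratio of means of 2.02. Eif4ebp2 alone kept close to Eif4e, at 0.792 ± 0.0307 against 0.801 ± 0.0449 (SD, n = 3 each). Eif4ebp1 accounted for 72.6 ± 2.12% of 4E-BP TPM in the controls and 86.4 ± 1.01% under the knockout label. These are transcript ratios and carry no measure of 4E-BP protein or its phosphorylation.

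**Figure D2:**
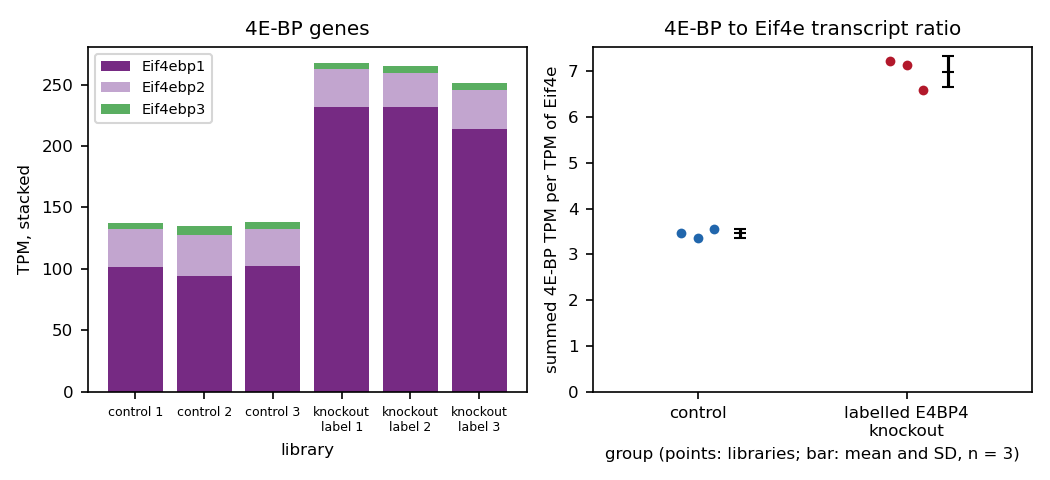
Left, stacked TPM of Eif4ebp1, Eif4ebp2 and Eif4ebp3 in each of the 6 libraries; right, their summed TPM per TPM of Eif4e in each library, with mean and SD (n = 3). The Eif4ebp1 share of the stack grows from a mean of 72.6% to 86.4%, and the ratio to Eif4e lies at 3.35 to 3.56 in controls and 6.60 to 7.22 under the knockout label.

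The other cap-binding genes were lower or did not pass. Eif4e3, a cap-binding relative of eIF4E, fell (log2 fold change −0.19, limma adjusted p = 0.0157) from 26.9 ± 1.51 to 23.4 ± 1.11 TPM (SD, n = 3 each). Leaving out knockout replicate 1 ended its call (adjusted p = 0.0669). Eif4enif1, which encodes the eIF4E transporter 4E-T, went from 30.4 ± 1.12 down to 27.7 ± 0.396 TPM and passed (log2 fold change −0.13, limma adjusted p = 0.0331). This small difference lost its call in 6 of 14 alternatives, among them without control replicate 2 (adjusted p = 0.105) and without any 1 of the 3 knockout replicates (adjusted p from 0.0680 to 0.0927). Eif4e2, which encodes the repressive cap-binding protein 4EHP, measured 56.0 ± 0.731 against 55.6 ± 0.939 TPM. Eif4e1b, an oocyte form, had 1 recovered read in all 6 libraries.

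Among the eIF4G scaffolds the noncanonical form stood apart. Eif4g2, also called DAP5, encodes a scaffold that lacks the eIF4E-binding part, and it rose from 221.9, 258.0 and 249.1 TPM to 301.1, 295.5 and 317.5 TPM (log2 fold change 0.33, SE 0.0562, limma adjusted p = 0.00101). Control replicate 1 was the lowest, and the groups did not overlap. The canonical scaffold gene Eif4g1 measured 134.6, 146.5 and 144.3 TPM in the controls and 138.2, 132.4 and 139.6 TPM under the knockout label. Its groups overlapped (log2 fold change −0.05, limma adjusted p = 0.339), and Eif4g3, the second canonical form, gave 48.3 ± 1.79 against 48.1 ± 1.71 TPM. The TPM of Eif4g2 per TPM of Eif4g1 was 1.65, 1.76 and 1.73 in the controls and 2.18, 2.23 and 2.27 under the knockout label. Eif4g2 lies on chromosome 7, whose shift is described with eIF3, and its call ended once chromosome medians were removed (log2 fold change 0.09, adjusted p = 0.238).

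The helicase genes moved little. Eif4a1, the second most abundant member, measured 716.2 ± 3.79 against 762.2 ± 13.6 TPM (SD, n = 3 each). It passed upward narrowly (log2 fold change 0.09, limma adjusted p = 0.0448), and the call ended in 11 of 14 alternatives, with adjusted p from 0.0180 to 0.163 over all 14. Eif4a2, its close relative, rose from 76.8 ± 1.46 to 84.4 ± 1.53 TPM (limma adjusted p = 0.0112, log2 fold change 0.13). That call ended on the deposited log2 values (adjusted p = 0.0904) and with chromosome medians removed (0.0628). Eif4a3, which serves in the exon junction complex, and the eIF4A stimulators Eif4b and Eif4h did not pass, with log2 fold changes of −0.06, 0.11 and −0.13. Eif4h passed downward without control replicate 1 (−0.21, limma adjusted p = 0.00195), in limma-voom on recovered reads (0.00726) and on the deposited log2 values (0.0123). Eif4a1 shares 65.3% of its 50-base windows with transcripts of other genes, mostly a processed copy, Eif4a-ps4, so its level is uncertain.

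Genes of eIF3, the large complex that assembles on the small ribosomal subunit, included the largest share of higher members among the 7 roles. Of 14 rows 10 rose (71.4%) and 0 fell in limma, also 0 at an unadjusted p under 0.05, with a median log2 fold change of 0.17. Of all tested genes 26.7% rose and 23.4% fell. On chromosome 7, which holds 3 of the eIF3 genes, 59.2% of tested genes rose. Limma-voom on recovered reads called 11 higher and 1 lower, the latter Eif3b, which also passed downward without control replicate 1 (−0.17, adjusted p = 0.00481). The rows Eif3j1 and Eif3j2 cover the same stretch of chromosome 2, from 122028580 to 122053632 and from 122028583 to 122053631, with 528.8 and 527.3 recovered reads per library on average, and are 1 measurement. Counted once, 9 of 13 eIF3 genes rose. The summed TPM of these 13 genes was 2214, 2277 and 2268 in the controls and 2662, 2688 and 2723 under the knockout label.

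Eif3m rose most within eIF3. It encodes a PCI-domain subunit of the core, and measured 104.7, 109.6 and 111.3 TPM in the controls and 172.6, 176.6 and 176.2 TPM under the knockout label. The groups lay far apart for their spread (log2 fold change 0.69, SE 0.0363, limma adjusted p = 5.96e-07). Eif3m occupies chromosome 2 from 104999657 to 105017027, minus strand, and all tested genes of that chromosome had a median of 0.00. Of the 12 tested genes that start within 1 Mb of it 9 rose and 0 fell, with a median log2 fold change of 0.38. It overlaps Ccdc73 on the other strand, and 37.3% of its 50-base windows occur in the transcript of 1 other gene, Gm7658.

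Eif3c, Eif3f and Eif3k followed, and all lie on chromosome 7. Eif3c, a core scaffold subunit that contacts eIF1 and eIF5, measured 197.7, 222.9 and 218.1 TPM in the controls and 316.0, 314.3 and 322.3 TPM under the knockout label (log2 fold change 0.58, SE 0.0467, limma adjusted p = 9.31e-06). Eif3f, an MPN-domain subunit, measured 174.1, 163.9 and 169.9 against 232.4, 227.0 and 244.7 TPM (log2 fold change 0.47, SE 0.0406, limma adjusted p = 1.36e-05). Eif3k, a small PCI-domain subunit, measured 185.0, 176.6 and 184.4 against 242.4, 253.8 and 243.3 TPM (log2 fold change 0.44, SE 0.0365, limma adjusted p = 1.13e-05). In each of these genes all 3 libraries labelled knockout were above all 3 controls.

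The other eIF3 genes that rose did so by 0.15 to 0.19 on the log2 scale. They were Eif3e (368.8 ± 13.6 to 416.8 ± 11.1 TPM), Eif3h (278.7 ± 8.83 to 312.2 ± 1.41 TPM), Eif3i (193.7 ± 5.74 to 216.9 ± 6.15 TPM), Eif3d (141.9 ± 4.38 to 158.1 ± 5.41 TPM) and Eif3j1 (13.2 ± 0.699 to 15.2 ± 0.800 TPM; SD, n = 3 each). eIF3d can itself bind the cap, and eIF3j is a loosely held subunit. The call of Eif3j1 ended without control replicate 2 (adjusted p = 0.0658) and without knockout replicate 1 (0.0779) or 2 (0.0711). Eif3a, the largest subunit, Eif3b, Eif3g and Eif3l did not pass, with log2 fold changes of 0.14, −0.09, −0.02 and 0.09. In Eif3a control replicate 1 was lowest, at 119.6 TPM against 142.7 and 145.0 TPM in the other controls and 146.9 to 152.4 TPM under the knockout label.

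By position in the complex, 6 of the 8 octamer genes (a, c, e, f, h, k, l and m, the PCI and MPN core) rose, with a median of 0.31, and 3 of the 5 others (b, d, g, i and j) rose, with a median of 0.15. These groups follow the known structure of the complex but were formed with the values known, and 3 of the 8 octamer genes lie on chromosome 7. On that chromosome 59.2% of tested genes rose, with a median of 0.24, against 26.7% of all tested genes. Relative to the largest subunit, Eif3c per TPM of Eif3a was 1.57 ± 0.0753 in the controls and 2.13 ± 0.0657 under the knockout label, and Eif3m per TPM of Eif3a was 0.804 ± 0.0621 and 1.18 ± 0.0212 (SD, n = 3 each).

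**Figure D3:**
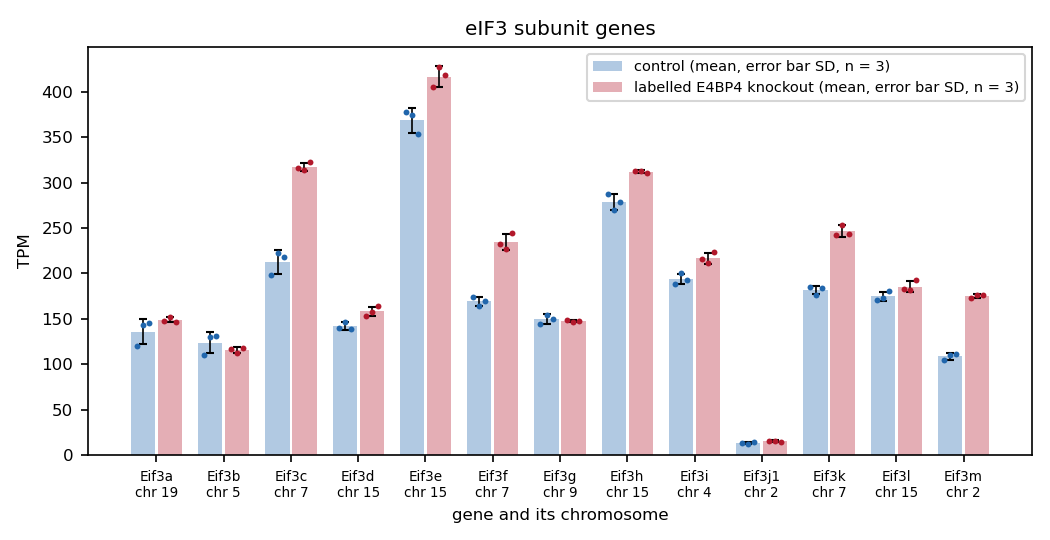
TPM of the 13 eIF3 genes (Eif3j2 left out), with the mean and SD (bars, n = 3) and each library (points), controls in blue and libraries labelled knockout in red, and the chromosome under each name. Eif3c, Eif3f and Eif3k on chromosome 7 and Eif3m on chromosome 2 show the widest gaps between groups, and Eif3g shows almost none (149.7 against 147.5 TPM).

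The 4 members on chromosome 7 lie on a chromosome where most tested genes rose. Of 878 tested genes there, 59.2% rose and 8.31% fell, with a median log2 fold change of 0.24, against 23.9% and 24.7% of the genes on other chromosomes, with a median of 0.00. All 4 members there rose (Eif3c, Eif3f, Eif3k and Eif4g2, median 0.45). With each chromosome's median removed, Eif3c (0.33, adjusted p = 0.000313), Eif3f (0.23, 0.00140) and Eif3k (0.19, 0.00190) still passed in limma at smaller values, and Eif4g2 did not. Eif3m on chromosome 2 kept 0.68. Within 1 Mb, the tested neighbours of Eif3c had a median of 0.18 (63 genes), those of Eif3f 0.18 (6), those of Eif3k 0.26 (49) and those of Eif4g2 0.51 (7). Of the 44 tested members elsewhere, 16 rose and 4 fell, with a median of 0.05, and of the 10 eIF3 genes elsewhere (Eif3j2 left out) 6 rose, with a median of 0.16. The summed TPM of those 10 was 1657 to 1714 in the controls and 1871 to 1912 under the knockout label. Over the 44 members with at least 5 tested neighbours, a member's log2 fold change and the median of its neighbours had a Pearson r of 0.53 and a Spearman rho of 0.42, and over the 40 of them not on chromosome 7 0.45 and 0.25. These are descriptions across genes measured in the same libraries, where neighbouring members share neighbours. The part of chromosome number or local position in the members' changes was not tested.

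**Figure D4:**
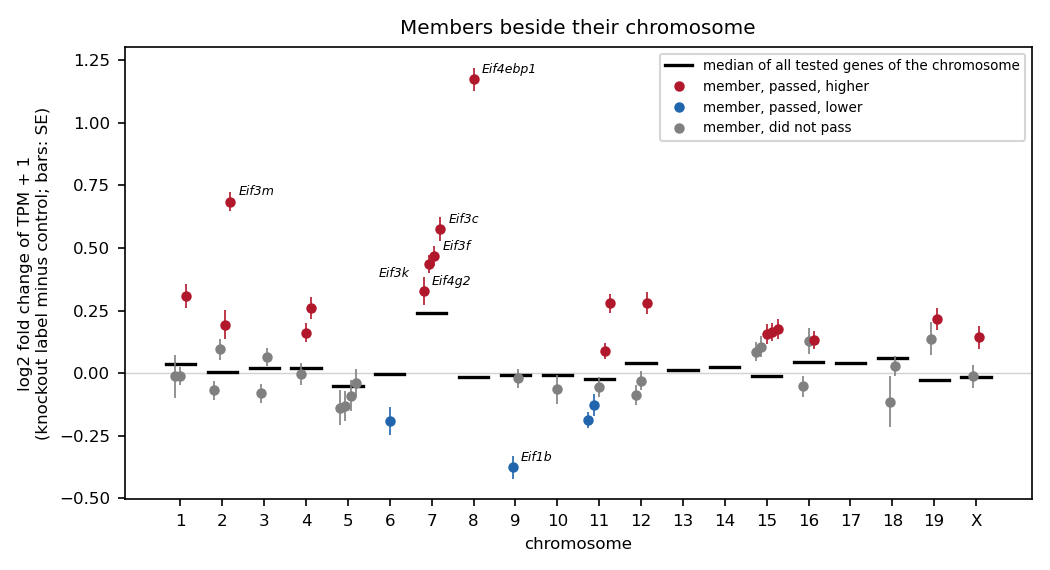
Log2 fold change of each tested member (points, SE bars; Eif3j2 left out) over its chromosome, with the median of all tested genes of that chromosome as a black line. The line of chromosome 7 lies at 0.24 and its 4 members above it, while Eif4ebp1 and Eif3m lie far above lines of −0.01 and 0.00.

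Among the factors of start codon selection, Eif1 and Eif1b moved in opposite directions. Eif1, which encodes the factor that guards against pairing at wrong codons, rose from 149.0 ± 5.14 to 180.9 ± 4.15 TPM (limma adjusted p = 0.000256, log2 fold change 0.28). Eif1b, its close paralog, fell from 81.4, 76.6 and 84.0 to 61.4, 64.0 and 60.4 TPM (log2 fold change −0.38, SE 0.0445, limma adjusted p = 0.000100). No library labelled knockout reached a control value for Eif1b, and no control reached a value under the knockout label for Eif1. The TPM of Eif1 per TPM of Eif1b was 1.83, 1.88 and 1.83 in the controls and 3.002, 2.85 and 2.92 under the knockout label. Of the 11 tested genes within 1 Mb of Eif1b, 5 fell and 1 rose, and Eif1b shared none of its 50-base windows with another gene, whereas Eif1 shared 31.6%.

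Eif5, which encodes the GTPase activator of eIF2 and acts against eIF1 at the start codon, measured 129.3 ± 4.92 against 121.6 ± 3.10 TPM and did not pass (log2 fold change −0.09, limma adjusted p = 0.0975). It passed downward without control replicate 1 (adjusted p = 0.0211), in limma-voom on recovered reads (0.0252), on the deposited log2 values (0.0361) and with chromosome medians removed (0.0267). The TPM of Eif1 per TPM of Eif5 was 1.15 ± 0.0584 in the controls and 1.49 ± 0.0512 under the knockout label (SD, n = 3 each). The eIF1A genes Eif1a and Eif1ax did not pass, with log2 fold changes of 0.03 and −0.01. Eif1ad, which encodes an eIF1A-domain protein of small subunit maturation, rose from 34.9 ± 1.20 to 40.7 ± 1.25 TPM.

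The genes of eIF2 itself moved little. Eif2s1 encodes the alpha subunit, whose phosphorylation is the switch of the integrated stress response. It measured 98.0, 103.0 and 96.9 TPM in the controls and 97.1, 99.3 and 95.3 TPM under the knockout label, and the groups overlapped (log2 fold change −0.03, SE 0.0382, limma adjusted p = 0.547). Eif2s2, the beta subunit gene, measured 203.7 ± 4.07 against 217.9 ± 10.8 TPM and did not pass (limma adjusted p = 0.0859). Eif2s3x, the X-linked gamma subunit gene, rose from 25.2 ± 0.915 to 27.9 ± 0.958 TPM (limma adjusted p = 0.0282, log2 fold change 0.14). That call ended with a replicate block (adjusted p = 0.0558), and without control replicate 1 (0.0658) or 3 (0.0658) or knockout replicate 1 (0.118) or 2 (0.0714). Its Y-linked partner Eif2s3y had 1 recovered read in all 6 libraries, where 3 reads would be a TPM of 0.106 to 0.135, counting error only. The alternative initiator tRNA carriers Eif2a and Eif2d did not pass, with log2 fold changes of 0.06 and −0.01. Eif2s3x shares 36.2% of its 50-base windows with transcripts of other genes and Eif2s2 27.8%, so their reads may be shared.

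Subunits of eIF2B, the exchange factor that phosphorylated eIF2 blocks, passed in 2 of 5 cases, where 50.1% of all tested genes passed. Eif2b2 rose from 35.8 ± 1.13 to 43.7 ± 1.30 TPM (limma adjusted p = 0.000479, log2 fold change 0.28) and Eif2b3 from 21.6 ± 0.638 to 26.1 ± 0.719 TPM (0.26, adjusted p = 0.000974; SD, n = 3 each). Eif2b5, the catalytic subunit gene, and the regulatory Eif2b1 and Eif2b4 did not pass, with log2 fold changes of 0.13, −0.04 and −0.14. Eif2b4 passed downward in limma-voom on recovered reads (adjusted p = 0.0412) and on the deposited log2 values (limma adjusted p = 0.0330). Eif2b5 passed upward on the deposited log2 values (limma adjusted p = 0.0490) and without knockout replicate 2 (0.0299). Of the 35 tested genes within 1 Mb of Eif2b3 24 rose and 1 fell, with a median of 0.22.

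Of the 3 tested factors that act at and after subunit joining, 1 rose and 1 fell, where 26.7% of all tested genes rose and 23.4% fell. Eif5b, the GTPase that joins the large subunit, rose from 40.8 ± 2.42 to 50.7 ± 1.07 TPM (limma adjusted p = 0.000608, log2 fold change 0.31). Eif5a, whose hypusine-bearing protein mainly aids elongation and termination, was the most abundant member and fell from 1178 ± 6.88 to 1034 ± 4.68 TPM (−0.19, limma adjusted p = 0.000926; SD, n = 3 each). Its groups were far apart for their spread, although the ratio of means was 0.877. Eif6, which keeps free large subunits from joining, measured 191.8 ± 6.70 against 182.8 ± 4.26 TPM and did not pass (limma adjusted p = 0.167). Eif5a2, the second eIF5A gene, had 8 recovered reads in all.

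Related genes outside the members are given by list, beside the 26.7% of all tested genes that rose and the 23.4% that fell. Of 13 tested eIF2 kinase and phosphatase genes 7 rose (53.8%) and 3 fell. Ppp1r15a, which encodes GADD34, the stress-induced partner of the eIF2 phosphatase, and lies on chromosome 7, rose from 10.3 ± 0.235 to 30.5 ± 1.26 TPM (SD, n = 3 each), Impact, an inhibitor of the kinase GCN2, rose by 0.44 on the log2 scale, and Eif2ak2, the interferon-induced kinase PKR, fell by 0.48. The 7 became 4 without a filter on low values, and also without control replicate 1 or without knockout replicate 3. In the mTORC1 and cap-kinase list 12 of 27 rose (44.4%) and 4 fell. Its 3 smallest adjusted p-values were those of Sesn2 (log2 fold change 1.54), Ddit4 (0.92) and Sesn1 (−1.05), whose proteins restrain mTORC1 under stress.

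Among other proteins of initiation 7 of 24 rose (29.2%), near the share of all tested genes, and 2 fell. Pdcd4, an inhibitor of eIF4A, rose from 3.81 ± 0.283 to 5.97 ± 0.366 TPM, and Fmr1, a translational repressor gene, fell by 0.20 on the log2 scale. The 7 became 4 without control replicate 3 or without knockout replicate 2, and the 2 became 1 in those settings and without knockout replicate 3. Of 17 elongation and termination genes 9 rose and 0 fell in limma, also 0 at an unadjusted p under 0.05, with 1 lower without control replicate 3. Eef2, the translocation factor, rose from 828.5 ± 46.8 to 1041 ± 27.1 TPM, Eef1b2, the exchange factor of eEF1A, rose by 0.23, and Eef2k, the kinase that inhibits eEF2, on chromosome 7, measured 0.771 ± 0.103 and 2.20 ± 0.381 TPM. Eef2k reached the TPM minimum only through the libraries labelled knockout, so it had to be higher there, and without it 8 of 16 rose. In the ATF4 list, chosen with its rise already known and so no independent evidence, 14 of 14 tested genes were higher. Chac1, Trib3 and Atf4 had the smallest adjusted p-values, that of Atf4 being tied with another gene of the list. Slc7a11 entered the count of 14 only through the libraries labelled knockout, and the other 13 were higher without it.

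The authors' deposited table gave its own log2 fold changes for these genes. For 47 of the 48 tested members its sign was that of limma on TPM, the exception being Eif1ax (0.01 in the authors' deposited table). At an adjusted p under 0.05 the authors' deposited table called 17 members higher and 6 lower, and 20 members were called in the same direction by both. The share of all genes that the authors' deposited table called was not counted here, so these counts have no background of their own. Limma on TPM called 50.1% of all tested genes. The authors' deposited table gave Eif4ebp1 1.17, Eif3m 0.68, Eif3c 0.56 and Eif1b −0.40, from the same libraries.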

How the data were processed

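Polyadenylated RNA of RAW264.7 cells, 3 libraries a group, was prepared for sequencing with NEBNext kits, per the labels' protocols. Tools in the submitters' processing notes are STAR 2.7.5a, HOMER 4.11.1, bcl2fastq and DESeq2, with the build mm10 and no roles. The authors deposited TPM for 25124 symbols, 1 RefSeq transcript each, and a second table of log2-scale values with log2 fold changes, p-values and adjusted p-values of their own comparison; its transform, the use of strand and the treatment of reads matching several genes are not given in the sources used here.

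TPM was compared as log2(TPM + 1) with limma 3.58.1 (mean-variance trend, R 4.3.3, two-sided, no covariates) over genes reaching a TPM of 1 in at least 3 libraries. The code was also run on simulated data in which a small share of genes changed and every gene had the same dispersion. That run cannot show how calls behave in these libraries, where 50.1% of tested genes passed. TPM times length was within 0.1 of a whole number of reads, at 1 scale per library, for 100% of values checked, which gave the recovered reads (15615639 to 19867732 per library). Windows of 50 bases came from GENCODE M21 transcripts and promoters from RefSeq (GRCm38.p6, the assembly of mm10). Alternatives were another pseudocount, other filters, upper-quartile scaling, limma-voom, the deposited log2 values, chromosome medians removed, a replicate block and each library left out. Members and lists were chosen with earlier results of these data known. Values in every library are given for the 4E-BPs, Eif2s1, Eif4e, Eif4g1 and members that passed with a log2 fold change of 0.4 or more in size, and for Eif1b, Eif4g2 and Eif3a, chosen after their values were seen. A planned comparison of protein sequences was not made. Up to 3 genes per related list are named, those with the smallest adjusted p, except that 1 is not reported here. The ETS, NRF1 and pyrimidine-run searches were added after the data were seen. No per-library column was left unused (0).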

Additional observations from a re-analysis of the deposited data

How the results depend on the processing

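Of the 24 called members, 16 kept their call in all 14 alternatives and 0 changed direction; the exceptions were Eif2s3x, Eif3j1, Eif3j2, Eif4a1, Eif4a2, Eif4e3, Eif4enif1 and Eif4g2. The number higher was 16 to 21. The number lower, 4, became 9 in limma-voom on recovered reads, 8 on the deposited log2 values and 2 to 7 with 1 library left out (7 without control replicate 1, 2 without knockout replicate 1). Counts over all genes moved too. Those higher, 3002 in the main setting, ran from 2429 to 3024 over the alternatives, of 9075 to 19482 tested. Those lower, 2637 of 11257, became 3145 of 11257 in limma-voom and 2893 of 10740 on the deposited log2 values. With 1 library left out 2228 to 2585 genes were lower. The number of eIF3 genes lower, 0, became 1 in limma-voom and 0 to 1 with a library left out. The members' median was 0.064 without a filter and 0.060 to 0.096 with a library left out. Without a filter, 4 eIF2 kinase and phosphatase genes were higher and 1 other protein of initiation was lower; the latter count was 4 in limma-voom and 4 on the deposited log2 values. With a library left out, these counts ran from 4 to 7 higher for kinases and phosphatases, 4 to 8 higher and 1 to 3 lower for other proteins of initiation, and 0 to 1 lower for elongation and termination. Of the 24 members not called, 9 passed in at least 1 alternative: Eif2b4, Eif2b5, Eif2s2, Eif3a, Eif3b, Eif4b, Eif4e, Eif4h and Eif5. Members that changed sign had not passed: with chromosome medians removed Eif1a gave −0.032, Eif1ax 0.0043 and Eif2b1 0.011, and Eif1ax gave 0.0078 on the deposited log2 values. With a library left out the ranges were −0.052 to 0.016 for Eif1ax, −0.079 to 0.015 for Eif2b1, −0.099 to 0.041 for Eif2d, −0.047 to 0.0029 for Eif3g, −0.019 to 0.0021 for Eif4e2 and −0.032 to 0.024 for Eif4g3. The cause of these changes was not tested.

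With the replicate number as a block, 18 members were higher and 3 lower. Same-numbered libraries did not deviate together (correlations of −0.013, −0.058 and 0.0030), so the numbers were not taken to pair the samples. Precision is limited by 3 libraries per group, and by reads for Eif4ebp3 and Eif2d.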
